A study of Mus musculus with 2 samples.

Results

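Peroxisomes are single-membrane organelles that shorten very long chain and branched fatty acids, break down the hydrogen peroxide this produces and start ether lipid synthesis. Peroxins, the proteins encoded by Pex genes, build the organelle and import its enzymes. PPARs were named after compounds that make peroxisomes multiply in rodent liver, where the family member PPARα raises transcription of many of these genes. PPARγ is best known from fat cells. The genes described here are 45 named genes of peroxisomal oxidation, transport, redox defence, ether lipid synthesis and biogenesis, chosen by name from 21938 mouse protein-coding genes. They fell into 25 enzyme genes, 7 genes of transporters and other membrane proteins, and 13 peroxin genes. Of the 2537 PPARγ peaks of the study, 8 had the nearest transcription start site (TSS) of a protein-coding gene at a member, within 100 kb.

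The peaks came from cultured TH2 cells, a helper T cell type that drives allergic and antiparasite responses, polarised from naive CD4+ T cells of C57BL/6J mice. The ChIP library was made with a TY1 antibody from cells given retrovirus with TY1-tagged Pparg on days 1 and 2 and collected on day 4. The input library, from cells carrying the same retrovirus, had no antibody and served the authors as background. The map therefore describes an introduced, tagged receptor in cells that all carry it. There was 1 ChIP library and 1 input library, so no spread between replicates could be measured and no difference below was tested. Per the file header, 10229438 tags were counted and 54617 lay in peaks. The deposited rows hold positions but no tag count, so no peak strength is known, and gene expression was not measured.

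A peak was assigned to 7 of the 45 members (15.6%, exact 95% binomial interval 6.49 to 29.5), where 7.92% of all protein-coding genes had one. These were Hsd17b4 and Ehhadh among the 11 genes of the peroxisomal β-oxidation spiral, Cat among the 3 redox genes, Abcd3 among the 7 transporter and membrane protein genes, and Pex5, Pex13 and Pex16 among the 13 peroxins. None of the 6 genes of acyl-CoA handling, the 2 of α-oxidation or the 3 of ether lipid synthesis had an assigned peak. All 8 peaks lay within 10 kb of a start site, so the 7 members were also counted at that limit, where the share of all genes was 4.31%. Within 1 kb there were 3 members (6.67%), namely Hsd17b4, Abcd3 and Pex16, beside 1.24% of all genes. The binomial intervals here and below cover counting error over genes only.

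The 4 peaks of these genes that held a DR1 element are shown in full, because DR1 is the sequence through which PPARγ and its partner RXR bind DNA. DR1 was taken as 2 copies of AGGTCA in the same direction with 1 free base between them, on either strand, with up to 2 mismatches in the 12 fixed bases. Each sequence is the peak as deposited, read from the forward strand of mm10, with capitals for every DR1 match. The Pex16 match lies on the reverse strand, so its capitals read as the reverse complement.
Ehhadh upstream peak, chr16:21790474-21790646: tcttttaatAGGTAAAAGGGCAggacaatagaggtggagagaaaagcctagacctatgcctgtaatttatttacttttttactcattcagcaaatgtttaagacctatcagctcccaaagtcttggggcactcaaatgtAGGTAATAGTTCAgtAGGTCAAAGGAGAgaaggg
Cat peak, chr2:103494092-103494264: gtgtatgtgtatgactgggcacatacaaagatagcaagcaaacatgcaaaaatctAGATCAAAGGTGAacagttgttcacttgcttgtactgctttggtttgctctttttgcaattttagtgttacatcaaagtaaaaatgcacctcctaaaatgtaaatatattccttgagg
Pex5 peak, chr6:124424048-124424220: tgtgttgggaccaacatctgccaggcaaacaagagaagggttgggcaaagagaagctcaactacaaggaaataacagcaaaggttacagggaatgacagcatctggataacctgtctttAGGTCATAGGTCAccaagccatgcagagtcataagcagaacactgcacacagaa
Pex16 peak, chr2:92375614-92375786: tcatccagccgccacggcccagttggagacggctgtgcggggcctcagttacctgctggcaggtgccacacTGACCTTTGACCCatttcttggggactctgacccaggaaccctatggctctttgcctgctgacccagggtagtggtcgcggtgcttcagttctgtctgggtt

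Among the β-oxidation enzymes, Hsd17b4 and Ehhadh encode the multifunctional proteins that carry out the hydration and dehydrogenation steps, the first for branched and very long chain substrates and bile acid precursors. The Hsd17b4 peak (chromosome 18, 50128774 to 50128946) was the first row of the deposited list, whose header does not say how rows were sorted. It lay in intron 1 of 23 of the principal transcript, 659 bp downstream of that transcript's start and 366 bp downstream of the nearest annotated start site. Its 200 bp window held no DR1 match at the limit of 2 mismatches. The closest sequence had 3 mismatches and was centred 8 bp from the peak centre, and the window held 1 exact AGGTCA. The next gene, Tnfaip8, started 75.6 kb away.

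Ehhadh was the member with the most assigned peaks, 2, while the other 6 members with a peak had 1 each. Over all genes with a peak, 79.9% had a single one. The Ehhadh upstream peak was centred 2.75 kb from the start site in intergenic sequence. It held 3 DR1 matches of 2 mismatches each, a pair of which stand side by side near the right end of the printed sequence. The left match of this pair was centred 59 bp from the peak centre. In the rat Ehhadh gene a PPAR response element upstream of the promoter is a classical example of the kind. The other Ehhadh peak (chromosome 16, 21782864 to 21783036) lay in intron 1 of 6, 4.86 kb downstream, and held neither a DR1 match nor an AGGTCA. A further peak 5.20 kb upstream of Ehhadh was nearer to Map3k13, a kinase gene whose start lay 3.79 kb from the Ehhadh upstream peak. That Map3k13 peak held no DR1 match.

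The other 9 β-oxidation genes had no assigned peak. These were Acox2 and Acox3, acyl-CoA oxidases for branched substrates, Acaa1a and Acaa1b, the thiolases of the last step, Scp2, which carries both a thiolase and a lipid transfer protein, and Ech1, Decr2, Amacr and Pecr, which prepare unsaturated or branched acyl-CoAs. Their nearest peaks of any assignment lay between 74.0 kb for Acaa1a and 2595 kb for Pecr. The Acaa1a and Acaa1b genes are close paralogs. Tags without a unique position were dropped by the authors, and how much of these genes is open to unique tags was not tested.

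Cat, which encodes the catalase that splits hydrogen peroxide, had 1 peak 9.02 kb upstream, in intergenic sequence. Its DR1 match was centred 25 bp from the peak centre and departed from the consensus by G3A and C12G, counted from 1 at the 5′ end of the match, with the consensus base first. The start of the next gene, Elf5, was 45.4 kb from this peak. Prdx5, a peroxiredoxin also found in mitochondria and cytosol, had no assigned peak, but a peak 11.03 kb from its start lay 83 bp from the TSS of Esrra, the gene of an orphan nuclear receptor. Idh1, the NADPH-producing isocitrate dehydrogenase of cytosol and peroxisomes, had its nearest peak at 626 kb.

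Abcd3 encodes PMP70, a transporter subunit that takes acyl-CoAs into the peroxisome. Its peak (chromosome 3, 121814119 to 121814291) lay in intron 1 of 22, 1.10 kb downstream of the start of the principal transcript and 704 bp from the nearest annotated start. The window held no DR1 match, no sequence within 3 mismatches of it and no AGGTCA, and its GC content, 35.5%, was the lowest of the 8. The related genes Abcd2, of a very long chain acyl-CoA transporter, and Abcd4, of a lysosomal cobalamin transporter, had their nearest peaks at 1962 and 228 kb. For the carrier gene Slc25a17 and the membrane protein genes Pxmp2 and Mpv17, the last of a mitochondrial inner membrane protein, the nearest peaks lay at 231, 1955 and 503 kb. Pxmp4 had a peak 5.46 kb from its start (chromosome 2, 154609082 to 154609254), but the start of Zfp341 was nearer, at 4.13 kb.

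The 3 peroxin genes with a peak encode proteins of matrix and membrane protein import: PEX5 is the shuttling receptor for enzymes with a type 1 targeting signal, PEX13 belongs to the docking complex that receives it, and PEX16 helps to place membrane proteins. The Pex5 peak lay 9.07 kb upstream in intergenic sequence and held the consensus DR1 without a mismatch, centred 39 bp from the peak centre. Only 26 of all 2537 peaks (1.02%) held such an exact match. The Clstn3 gene started 9.37 kb from the same peak, so the assignment to Pex5 rests on a small difference in distance.

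The Pex16 peak was the nearest of the 8 to a start site, 141 bp downstream of an alternative start and 394 bp downstream of the start of the principal transcript. It was centred in intron 1 of 10 of that transcript, and 62 bases of the peak were coding sequence. Its DR1 match was centred 9 bp from the peak centre and had a single change, A1G. The start of Large2, a neighbouring glycosyltransferase gene, lay 831 bp from the peak. Only 163 of all 2537 peaks (6.42%) held a DR1 with at most 1 mismatch, and Pex5 and Pex16 had 2 of them.

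Pex13 was a less clear case. Its assigned peak (chromosome 11, 23662348 to 23662520) lay in intron 1 of 3, 3239 bp from the nearest Pex13 start site and 3240 bp from a start site of Pus10, a pseudouridine synthase gene. With the basic transcript set of the annotation, this peak went to Pus10. Another peak (chromosome 11, 23666394 to 23666566) lay upstream of the Pex13 gene body. It was centred 521 bp from a Pex13 start and 31 bp from a Pus10 start, and was counted for Pus10. Neither held a DR1 match. The assignment of intergenic and shared promoter peaks by distance does not show which gene, if any, a peak acts on.

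**Figure D1:**
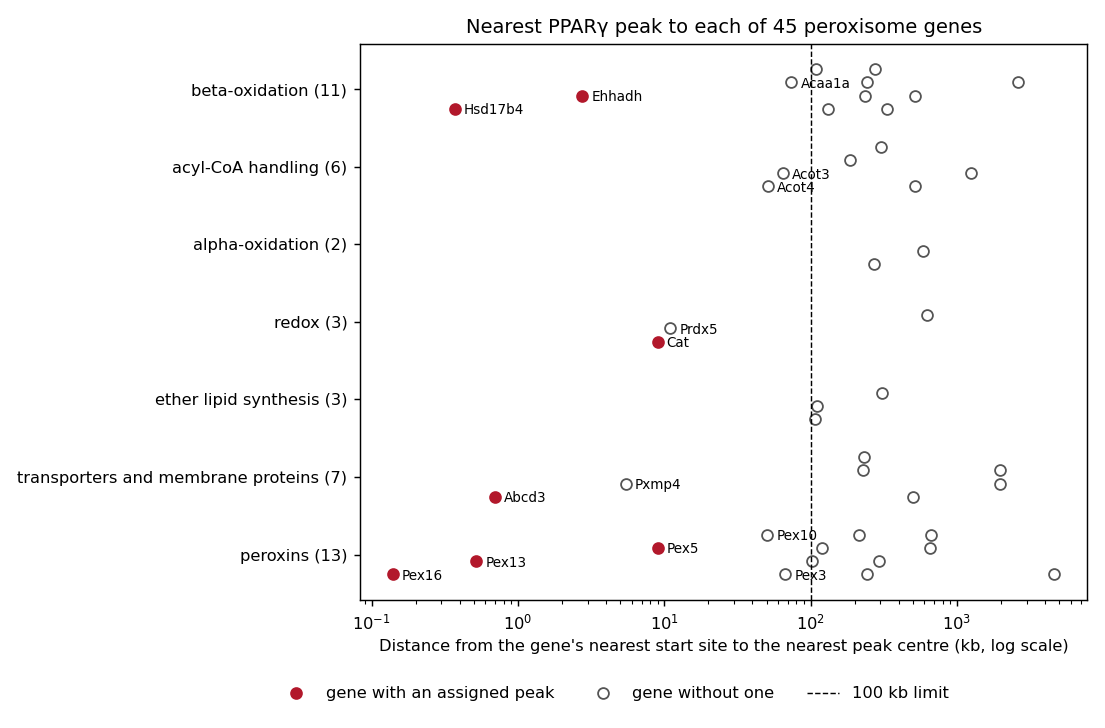
Distance in kb, on a log axis, from the nearest start site of each of the 45 genes to the nearest PPARγ peak centre, by role, with the number of genes in parentheses. Filled points are the 7 genes with an assigned peak, all within 10 kb, and open points are the other 38 genes, whose nearest peaks run from 5.46 kb for Pxmp4 to 4636 kb for Pex2. The Pex13 point shows the peak at 521 bp that was assigned to Pus10, since it is nearer than the assigned one.

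**Figure D2:**
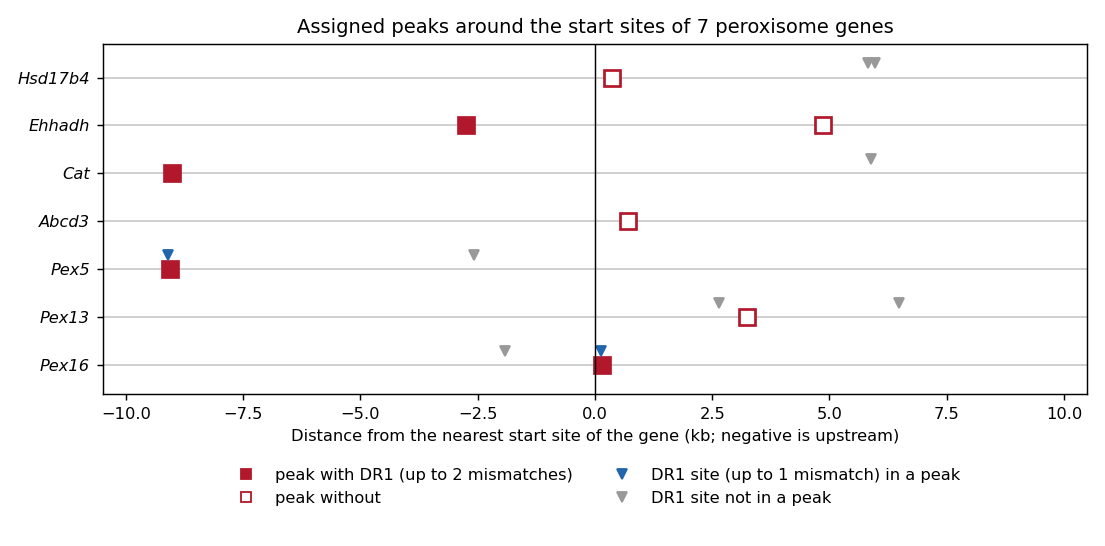
Positions of the 8 assigned peaks relative to the nearest start site of their gene, in kb, with upstream to the left. Filled squares hold a DR1 match of up to 2 mismatches and open squares hold none, and triangles mark DR1 sites of up to 1 mismatch within 10 kb. The peaks of Cat and Pex5 lie about equally far upstream, at 9.02 and 9.07 kb, and both are filled.

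Enzymes and peroxins were then compared as classes. A peak was assigned to 3 of 25 enzyme genes (12%, exact interval 2.55 to 31.2) and to 3 of 13 peroxin genes (23.1%, interval 5.04 to 53.8), and 1 of 7 transporter and membrane protein genes had one (14.3%, interval 0.361 to 57.9). The intervals overlap over most of their width, and the difference was not tested. At the limit of 100 kb, all 3 intervals include the share of all protein-coding genes, 7.92%. At 10 kb the counts were the same and that share was 4.31%. The intervals of enzymes and of transporter and membrane protein genes include it, and that of peroxins does not. No departure from the share was tested. With the basic transcript set, which gave the Pex13 peak to Pus10, 2 of the 13 peroxin genes had a peak. Taking for each gene the sequence nearest to its start sites and within 100 kb of them, the median was 37.2 kb for enzymes, 18.6 kb for peroxins and 45 kb for all protein-coding genes, and the sums were 1.45 Mb over the 25 enzyme genes and 0.67 Mb over the 13 peroxin genes. Per Mb of such sequence there were 2.75 peaks for enzymes, 4.48 for peroxins and 3.17 for all 45 members, beside 1.32 over all genes. The 3 peroxin peaks include the uncertain one of Pex13. The lists differ in the length of this sequence, and 48.1% of all peaks within 100 kb lay within 10 kb of a start site. How far this alone changes the densities was not tested.

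**Figure D3:**
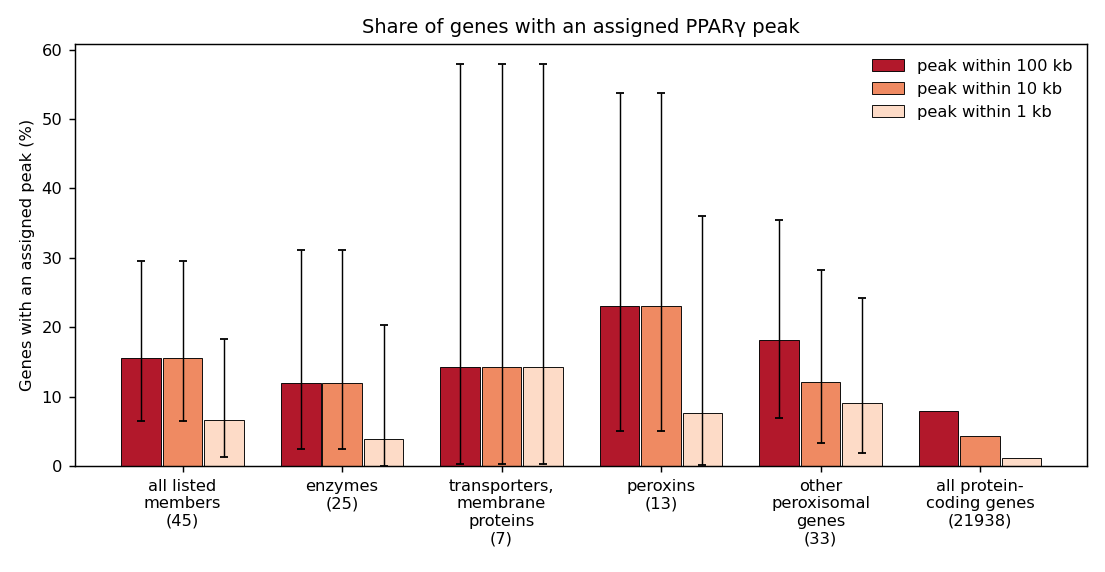
Share of genes with an assigned peak, in percent, at limits of 100, 10 and 1 kb from the nearest start site, with the number of genes in parentheses. Error bars are exact 95% binomial intervals, wide for lists of 7 to 45 genes, and the bars at the right give all protein-coding genes (7.92%, 4.31% and 1.24%).

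The content of the peaks was compared with that of all peaks within 100 kb of a gene. DR1 was present in 4 of the 8 member peaks (50.0%) and in 460 of 2228 peaks (20.6%). With such peaks alone, 4 members had an assigned peak (8.89%), against 1.99% of all genes. Enzyme peaks held DR1 in 2 of 4 cases, each with 2 mismatches, and peroxin peaks in 2 of 3 cases, with 0 and 1 mismatches. The AP-1 site, TGACTCA or TGAGTCA, which binds FOS and JUN factors of activated T cells, was in 0 of the 8 member peaks and in 18.2% of the peaks within 100 kb. With 8 peaks, these shares are a description of the loci and not of a class. By position, 4 member peaks were intronic (50.0%), 3 intergenic (37.5%), 1 in a promoter and 0 in exons, against 52.2%, 31.7%, 11% and 5.07% of peaks within 100 kb. The median distance to the TSS was 3.0 kb for member peaks and 10.8 kb for peaks within 100 kb. None of the 8 was centred in repeat-masked sequence, where 16.1% of those peaks were.

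The genome around the members held many more DR1 sites than peaks. Within 10 kb of their start sites there were 44 sites with at most 1 mismatch, near 29 of the 45 genes (64.4%, against 45.6% of all genes), and 2 of the 44 (4.55%) were centred in a peak, those of Pex5 and Pex16. Over all protein-coding genes, 74 of 13703 such sites (0.540%) were centred in a peak. Enzyme genes had 28 of these sites, of which 0 lay in a peak, and peroxin genes had 12, of which 2 did. With 0.540% of such sites in a peak over all genes, a count of 0 among 28 is near the background. The difference between the classes was not tested. Repeat-masked sequence held 23 of the 44 sites (52.3%) and 48.0% of the sites of all genes. Outside repeats, 2 of 21 sites of the members were in a peak, against 54 of 7122 (0.758%) of all genes.

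Exact DR1 sites were found near 4 members, 1 each, and the site of Pex5 was in a peak while the other 3 were not. The 4 sites are shown together because they match in all fixed bases, and their spacer bases are in capitals, 5′ to 3′ on the strand of the repeat.
Acaa1a: aggtcaGaggtca
Acaa1b: aggtcaGaggtca
Far1: aggtcaCaggtca
Pex5: aggtcaTaggtca
The Acaa1a site (chromosome 9, 119348219 to 119348231) lay 280 bp upstream of an alternative start site, in repeat-masked sequence, and its nearest peak centre was 82539 bp away. The Acaa1b site (chromosome 9, 119145293 to 119145305) lay 4.76 kb downstream of the nearest annotated start site, which is inside the gene. It was past the 3′ end of the gene. The Far1 site (chromosome 7, 113509843 to 113509855) lay 3.98 kb upstream of the gene of an acyl-CoA reductase that supplies fatty alcohol for ether lipids. Over all genes, 11 of 1383 exact sites (0.795%) were in a peak. A sequence match is a description and not evidence of binding.

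**Figure D4:**
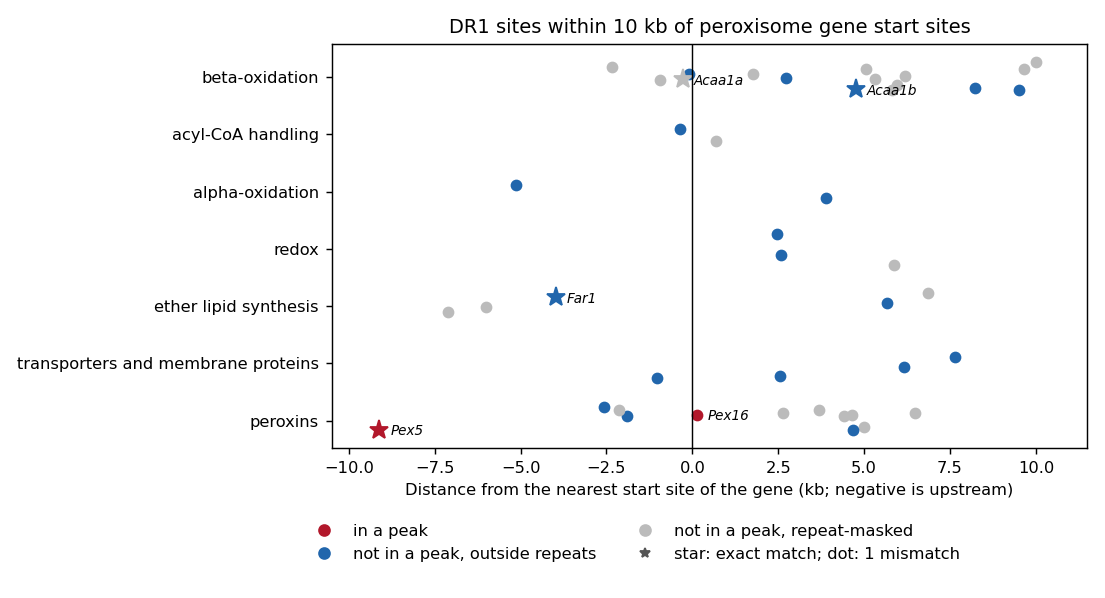
The 44 DR1 sites with at most 1 mismatch within 10 kb of a start site of the 45 genes, by role and by distance in kb, with upstream to the left and points spread vertically for legibility. Stars are exact matches, and colours give sites in a peak, sites outside repeats and sites in repeat-masked sequence. The 2 sites in a peak belong to Pex5 and Pex16.

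Proximal promoters held few DR1 matches. RefSeq promoters, from 250 bp before to 50 bp after the start (GRCm38.p6), were matched for 38 of the 45 genes with 46 promoters. The genes without an entry were Hsd17b4, Amacr, Abcd2, Abcd4, Pxmp2, Pex2 and Pex19. With up to 2 mismatches, 3 of the 46 promoters (6.52%) held a DR1 match and 0 held one with at most 1 mismatch, against 3.86% and 0.554% of 32851 promoters. The 3 matches were at the enzyme genes Acot4, Acox2 and Cat, centred 7 bp upstream, 15 bp downstream and 198 bp upstream of the start, and none lay in a peak. Of the 27 enzyme promoters, 3 held a match (11.1%), and of the 14 peroxin promoters, 0 did. With a match in 3.86% of all promoters, a count of 0 among 14 is near the background. The difference between the classes was not tested. AP-1 sites were in 3 of the 46 promoters (6.52%) and in 5.20% of all promoters.

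The 38 members without an assigned peak divided into 7 with a peak of another gene within 100 kb and 31 with none. Those 7 were Pxmp4, Prdx5, Pex10, Acot4, Acot3, Pex3 and Acaa1a, with nearest peaks at 5.46 to 74.0 kb. Acot3 and Acot4, peroxisomal acyl-CoA thioesterase genes of a cluster on chromosome 12, shared a peak 429 bp from the start of Acot2, their mitochondrial relative in the cluster, and that peak (83987346 to 83987518) held a DR1 match of 2 mismatches. For Pex10 and Pex3, which encode a ubiquitin ligase of import and the membrane anchor for PEX19, the nearer genes were Morn1 and Phactr2.

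Of the 31 others, Pex11g was the closest to the limit, at 101.8 kb, and Pex2 the farthest, at 4636 kb. These 31 also held the carnitine acyltransferase gene Crot, the thioesterase gene Acot8, the coenzyme A hydrolase genes Nudt7 and Nudt19, and the α-oxidation genes Phyh and Hacl1. Agps, Gnpat and Far1, which together make the ether bond of plasmalogens, had nearest peaks at 109.8, 309 and 107.8 kb. Among peroxins, the list included Pex11a and Pex11g of peroxisome division, Pex7, the receptor for type 2 targeting signals, Pex14 of the docking complex, Pex6 and Pex26 of the receptor recycling complex, Pex2, another ubiquitin ligase of the import cycle, and Pex19, the chaperone of membrane proteins. Pex11a, a gene long studied as a PPAR target in rodents, had its nearest peak at 291 kb. The median distance to the nearest peak was 236 kb for enzymes, 120 kb for peroxins and 228 kb for all 45 genes, against 310 kb for all protein-coding genes.

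A separate list of 33 other peroxisomal genes, several of whose proteins also work in mitochondria or cytosol, gave a peak at 6 (18.2%, interval 6.98 to 35.5), with 9 peaks in all, where 7.92% of all protein-coding genes had one. The interval includes that share, and the list was changed after its values were seen, so its counts are a description only. The genes with a peak were the enzyme and carrier genes Acot12, Eci2, Crat and Mlycd (4 of 14), Gstk1 (1 of 9 oxidase and redox genes) and Lonp2 (1 of 4 protease and quality control genes). The 6 genes of division, import adaptors and other functions had 0. Lonp2, the peroxisomal matrix protease, had 3 peaks in its gene body, at 550 bp, 1.71 kb and 9.18 kb from the nearest start sites. A promoter peak lay 168 bp upstream of Mlycd, which encodes malonyl-CoA decarboxylase, an enzyme that removes the inhibitor of mitochondrial fatty acid import and is shared among mitochondria, peroxisomes and cytosol. The Crat peak, at the carnitine acetyltransferase gene, lay 3.01 kb from an alternative start, and that of Gstk1, a glutathione transferase gene, 10.4 kb upstream. The isomerase gene Eci2 had another peak 69.3 kb from an alternative start, beside the one at its promoter. This distant peak lay 102.12 kb from the start of the principal transcript. Acot12, an acetyl-CoA thioesterase gene, had a peak 10.4 kb from an alternative start, centred in repeat-masked sequence. That peak was in intron 5 of 14, 27.45 kb downstream of the start of the principal transcript.

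DR1 was present in 3 of these 9 peaks (33.3%), with 2 mismatches in each, and AP-1 in 1, the distant Eci2 peak, against 20.6% and 18.2% of peaks within 100 kb. With so few peaks these counts do not set the genes apart. The matches are printed 5′ to 3′ on the strand of the repeat, with capitals for the bases that fit the consensus or fill the spacer.
Crat: tGGTCACAaGTCA
Gstk1: gtGTCAGAGGTCA
Lonp2: AGGTCATAGGTat
The Gstk1 match was centred 5 bp from its peak centre and those of Crat and Lonp2 at 79 and 80 bp, near the edges of the peaks. Within 10 kb of the 33 genes, 0 of 31 DR1 sites with at most 1 mismatch were in a peak. With 0.540% of such sites in a peak over all genes, a count of 0 is near the background.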

How the data were processed

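The authors aligned reads with Bowtie2 (mm10), kept tags with a unique position and called peaks with HOMER (whose versions were not stated), per the submitters' processing notes and the series text. A peak needed 8 tags (false discovery rate 0.001) and a 4-fold density over both the input and the surrounding 10000 bp, per the file headers. The score column of the deposited file is 1 in every row, so only positions were used, printed counting from 1. Tag depth averaged 21.5 tags per peak.

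Peak centres were assigned to the nearest TSS of any transcript of a protein-coding gene (GENCODE vM21, mitochondrial genes left out), within 100 kb. Earlier processing of these data used the basic transcript set, which is an alternative here. Classes of position used all annotated genes, in the order promoter (1000 bp upstream to 100 bp downstream), exon, intron, intergenic. Both strands of 200 bp around each centre, and of the GRCm38 genome, were searched for motifs. All members are named, as are other peroxisomal genes with a peak. The members, lists and alternatives were chosen with earlier results of these data known. From the list of other peroxisomal genes, 1 gene with an assigned peak was taken out after its values were seen and is not reported here, which lowered that list's counts. Assignment and DR1 search were tested on simulated data. Python 3.11.15, numpy 2.4.6, pandas 2.3.3, scipy 1.17.1, pysam 0.24.0 and matplotlib 3.10.9 were used.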

Additional observations from a re-analysis of the deposited data

How the results depend on the processing

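Of 50 recomputed counts, 38 stayed within 1.5 times the reported value. All 8 member peaks lay within 10 kb of a start site, so limits of 10 and 50 kb could not change any count of members or of their peaks. The 38 include these counts, which therefore do not show how stable the results are. When every gene with a TSS within 100 kb of a peak was counted, instead of the nearest alone, 14 members had a peak (31.1%, against 24.9% of all genes): 7 enzymes, 5 peroxins and 2 transporter or membrane protein genes, in 20 pairs of gene and peak, and 12 other peroxisomal genes. With DR1 peaks alone, 4 members had a peak, 4 peaks were assigned to them, 1 of these lay within 1 kb, 0 transporter or membrane protein genes had one, and 3 other peroxisomal genes did. With at most 1 mismatch, 2 member peaks held DR1. The basic transcript set moved Pex13 to its neighbour and left 6 members, 2 of them peroxins. No paired analysis was possible because each group has a single library. Without replicates or a tag count per peak, a site below the calling threshold cannot be told from an unbound one.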
